A study of Paeonia suffruticosa with 12 samples.

Results

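The 5 unigenes described here carry the Swiss-Prot names PER11, PER12, PER64, PER64 and PER20, which are names of class III peroxidases, and they were measured in seedlings grown from seed embryos of the peony "FengDan". They are 5 of the 130956 unigenes in the counts and 5 of the 11 class III peroxidases among the 769 unigenes whose names were at hand, and all 5 passed the filter on low counts, which kept 58247 unigenes. They were selected on their fold changes and adjusted p in the study's lists of differentially expressed unigenes, which set AC against CK, PVP and AC and PVP, and AC and PVP against PVP, so that their levels in those comparisons are given below as a description and without a test. RNA was sequenced from 12 libraries in 4 groups of 3, named after the anti-browning agent in the medium of the embryo culture. AC medium held 0.9 g/L activated carbon, an adsorbent. AC and PVP medium held 0.9 g/L activated carbon and 2.5 g/L polyvinyl pyrrolidone, which is a phenolic-binding polymer. PVP medium held 2 g/L polyvinyl pyrrolidone, and CK medium held neither agent. PVP was thus not at the same dose in both media that held it. The basal medium, which held the auxin IAA, was common to all 4 groups. Each sample pooled material of 10 embryos, and its number marks a separate sample of the group. The labels give roots, stems and leaves 30 days after rooting for all 4 groups, whereas the study's methods give leaves and roots, and its results describe CK seedlings as unrooted and root growth with PVP as inhibited. The groups can therefore differ in their share of root tissue, and in such mixed samples fewer cells of a type and less RNA per cell cannot be told apart.

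Class III peroxidases are secreted plant enzymes with a heme group that oxidise phenolics with hydrogen peroxide. They couple monolignols into lignin in the cell wall and phenolics into suberin, and some of them also form reactive oxygen species. With polyphenol oxidases they belong to the enzymes linked to the browning of cultured tissue, since oxidised phenolics turn into brown quinones. In Arabidopsis, the enzyme named PER64 acts in the lignification of the Casparian strip, the ring of lignin around root endodermis cells. No individual role is given here for PER11, PER12 and PER20.

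The counts came from an assembly without a genome, so the unigenes have no genome position, and the sequences of the 5 unigenes were not used here. Levels are given as CPM, counts per 1000000 counts of a library, after scaling by the trimmed mean of M-values (TMM), which sets the bulk of unigenes level between libraries. The totals were 11071691 to 25069044 counts per library. The TMM factors were 0.841 to 1.21 in AC, 0.824 to 1.07 in AC and PVP, 0.752 to 0.978 in PVP and 1.05 to 1.47 in CK. Since unigene lengths were not in the counts, levels are compared between groups and not between unigenes. All 60 values of the 5 unigenes were whole numbers in the deposited estimates and ran from 6 to 6519 counts.

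Of 15 unigenes for seed storage and oil body proteins, which mark remaining embryo tissue, all were detected in every AC and every AC and PVP library, 11 to 13 in PVP libraries and 12 to 15 in CK libraries. Their summed level was 3240 to 28238 CPM of the library total in AC, 2531 to 20130 in AC and PVP, 1961 to 5822 in PVP and 3521 to 47437 in CK, where replicate 2 held the highest sum. Without 1 vicilin unigene, left out after the values were seen, the sums were 2317 to 27254 in AC, 908 to 18327 in AC and PVP, 41.9 to 266 in PVP and 55.0 to 45987 in CK. The storage globulin unigene 11S2 TRINITY_DN6508_c0_g1 was at 0 in all PVP and 2 CK libraries, whereas the other 11S2 unigene, TRINITY_DN2546_c0_g1, was detected in every library. Of 11 unigenes of photosynthetic tissue, 8 to 11 were detected in each library. Their sum was 108 to 191 CPM in AC, 257 to 421 in AC and PVP, 195 to 443 in PVP and 45.6 to 209 in CK, with its lowest value in CK replicate 2. Not all 11 went with the sum. Both PSBR unigenes were highest in CK, at 1.13 to 3.00 and 0.945 to 3.75 CPM. In the other groups they reached at most 0.614 and 0.651 CPM. PSBS also had its highest value, 7.35 CPM, in a CK library. The part of these tissue differences in the peroxidase levels was not tested.

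PER11, PER12, PER20 and the PER64 unigene TRINITY_DN9029_c0_g1 had the same order of group means, highest in PVP, then CK, then AC and PVP, and lowest in AC. The second PER64 unigene, TRINITY_DN105044_c0_g1, had its highest mean in AC, then AC and PVP, then PVP, and its lowest in CK. The plot of levels by library shows both patterns.

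**Figure D1:**
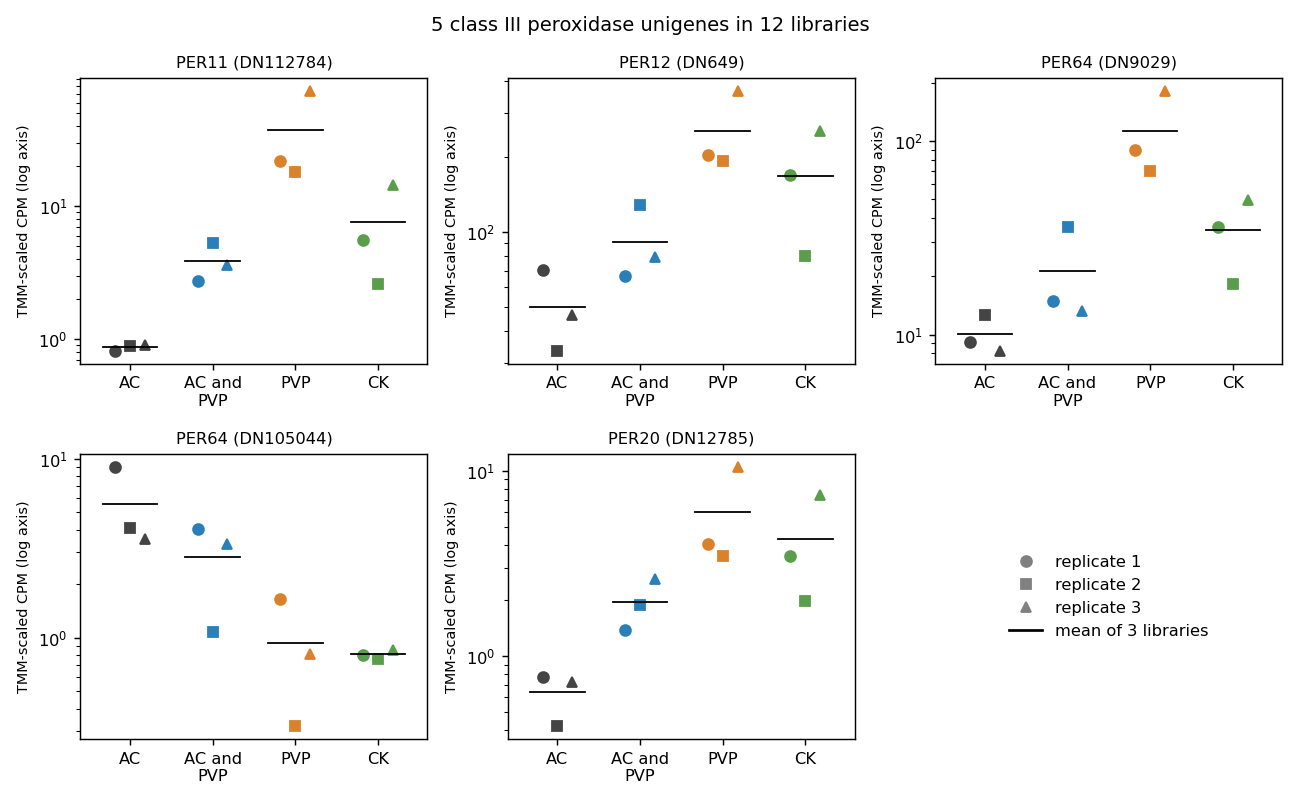
TMM-scaled CPM (log axis) of the 5 class III peroxidase unigenes in each library of AC, AC and PVP, PVP and CK; symbols mark replicates and lines the mean of 3 libraries. In 4 panels the AC mean is lowest and the PVP mean is highest, and in the panel of TRINITY_DN105044_c0_g1 the AC mean is highest, at 5.54 CPM, against 0.807 CPM in CK.

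PER11 (TRINITY_DN112784_c0_g1) had 0.815, 0.885 and 0.903 CPM in AC, 2.71, 5.24 and 3.61 CPM in AC and PVP, 21.8, 17.9 and 73.0 CPM in PVP, and 5.53, 2.60 and 14.5 CPM in CK. The AC libraries, which held 15 to 20 counts each, lay below all other libraries, and the PVP libraries lay above all others. AC and PVP and CK overlapped. The means were 0.868 ± 0.0467 CPM in AC, 3.85 ± 1.29 CPM in AC and PVP, 37.6 ± 30.8 CPM in PVP and 7.56 ± 6.22 CPM in CK (SD, n = 3 each). Of the 5 unigenes it had the widest span between group means.

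PER12 (TRINITY_DN649_c0_g1) had 70.2, 33.5 and 46.7 CPM in AC, 66.8, 128 and 79.5 CPM in AC and PVP, 202, 191 and 365 CPM in PVP, and 169, 80.3 and 253 CPM in CK. The lowest CK library, replicate 2, lay within the range of AC and PVP, replicate 1 lay just below PVP and replicate 3 within its range. The means were 50.1 ± 18.6 CPM in AC, 91.3 ± 32.1 CPM in AC and PVP, 253 ± 97.1 CPM in PVP and 168 ± 86.5 CPM in CK (SD, n = 3 each). AC overlapped with AC and PVP, AC and PVP with CK, and CK with PVP.

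PER20 (TRINITY_DN12785_c0_g1) had 0.774, 0.417 and 0.723 CPM in AC, 1.38, 1.88 and 2.61 CPM in AC and PVP, 4.02, 3.45 and 10.5 CPM in PVP, and 3.48, 1.97 and 7.38 CPM in CK. AC, with 8 to 19 counts a library, was lowest without overlap, whereas AC and PVP overlapped with CK, and PVP overlapped with CK. The means were 0.638 ± 0.193 CPM in AC, 1.96 ± 0.622 CPM in AC and PVP, 5.99 ± 3.91 CPM in PVP and 4.28 ± 2.79 CPM in CK (SD, n = 3 each).

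The PER64 unigene TRINITY_DN9029_c0_g1 had 9.21, 12.7 and 8.25 CPM in AC, 15, 36.0 and 13.2 CPM in AC and PVP, 89.7, 70.1 and 181 CPM in PVP, and 35.8, 18.3 and 49.9 CPM in CK. As with PER11, AC was below and PVP above all other libraries, and the library AC and PVP replicate 2 reached the range of CK. The means were 10.04 ± 2.32 CPM in AC, 21.4 ± 12.7 CPM in AC and PVP, 114 ± 59.2 CPM in PVP and 34.7 ± 15.8 CPM in CK (SD, n = 3 each).

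The PER64 unigene TRINITY_DN105044_c0_g1 had 8.96, 4.11 and 3.55 CPM in AC, 4.04, 1.08 and 3.34 CPM in AC and PVP, 1.65, 0.318 and 0.812 CPM in PVP, and 0.803, 0.763 and 0.855 CPM in CK. The AC libraries lay above every PVP and every CK library, AC overlapped with AC and PVP, and CK lay within the range of PVP. These levels rest on 59 to 220 counts in AC, 16 to 85 in AC and PVP, 6 to 39 in PVP and 17 to 27 in CK. The means were 5.54 ± 2.98 CPM in AC, 2.82 ± 1.55 CPM in AC and PVP, 0.927 ± 0.674 CPM in PVP and 0.807 ± 0.0462 CPM in CK (SD, n = 3 each).

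Within a group, the 5 unigenes often had their extremes in the same library. In CK, replicate 2 was lowest and replicate 3 highest for all 5, and in PVP replicate 2 was lowest for all 5 and replicate 3 highest for 4. For TRINITY_DN105044_c0_g1 the CK values spanned only 0.763 to 0.855 CPM. In CPM of the library total its highest CK library was replicate 1, at 1.18 against 1.13 in replicate 3. In AC, replicate 1 was highest for 3, and in AC and PVP replicate 2 was highest for 3 and replicate 1 lowest for 3. The depth and scaling of a library are common to all 5 unigenes, and CK replicate 2 is the CK library with the highest sum of seed reserve unigenes and the lowest sum of photosynthetic ones. The part of that library's make-up was not tested, and values without it are given beside the tests.

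In the comparisons from which the 5 unigenes were chosen, fold changes were estimated with edgeR in one fit of all libraries and are log2 values, first group over second, with their standard error (SE). AC vs. CK gave -3.12 ± 0.62 for PER11, -1.74 ± 0.44 for PER12, -2.73 ± 0.55 for PER20 and -1.79 ± 0.46 for TRINITY_DN9029_c0_g1, against 2.78 ± 0.56 for TRINITY_DN105044_c0_g1. AC vs. PVP gave the largest differences, -5.43 ± 0.68 for PER11, -2.33 ± 0.45 for PER12, -3.21 ± 0.55 for PER20, -3.50 ± 0.49 for TRINITY_DN9029_c0_g1 and, with the other sign and below its value of AC vs. CK, 2.55 ± 0.56 for TRINITY_DN105044_c0_g1. Without CK replicate 3, AC vs. CK was -2.18 for PER11 and -2.04 for PER20, and without PVP replicate 3, AC vs. PVP was -4.51 for PER11 and -2.54 for PER20. Without PVP replicate 1, AC vs. PVP was 3.31 for TRINITY_DN105044_c0_g1. In each comparison, 4 of the 5 unigenes were lower and 1 was higher in AC without overlap of the libraries. Over all unigenes, AC libraries were all lower for 7.25% and all higher for 3.70% in AC vs. CK, and for 6.38% and 4.75% in AC vs. PVP.

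AC and PVP over PVP, whose media differ in activated carbon and also in the dose of PVP, gave -3.29 ± 0.60 for PER11, -1.47 ± 0.43 for PER12, -1.62 ± 0.51 for PER20, -2.41 ± 0.47 for TRINITY_DN9029_c0_g1 and 1.58 ± 0.56 for TRINITY_DN105044_c0_g1. Without PVP replicate 3 these values were -2.37 for PER11 and -0.95 for PER20, without PVP replicate 1 TRINITY_DN105044_c0_g1 had 2.33, and without AC and PVP replicate 2 TRINITY_DN9029_c0_g1 had -3.01. Here 4 of 5 were lower in AC and PVP without overlap, against 6.06% of all unigenes. AC vs. AC and PVP gave smaller values, -2.14 ± 0.62 for PER11, -0.86 ± 0.43 for PER12, -1.58 ± 0.55 for PER20, -1.09 ± 0.45 for TRINITY_DN9029_c0_g1 and 0.98 ± 0.52 for TRINITY_DN105044_c0_g1. Without AC and PVP replicate 2, TRINITY_DN9029_c0_g1 had -0.49. In this comparison 3 of 5 were lower in AC without overlap, against 3.77% of all unigenes. In CPM of the library total, the 4 unigenes lower in AC than in CK without overlap became 3, as PER12 then overlapped. The 4 lower in AC and PVP than in PVP also became 3, as PER20 overlapped. The shares of all unigenes above are on TMM-scaled CPM, and those in CPM of the library total are not given here. Since these comparisons chose the 5 unigenes and share libraries with each other, nothing is read from these counts. The study's discussion describes PER11, PER12 and TRINITY_DN9029_c0_g1 as upregulated in 3 comparisons and proposes that activated carbon stimulates genes of this pathway. In the counts used here these unigenes were lower in AC than in CK and PVP, and lower in AC and PVP than in PVP.

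**Figure D2:**
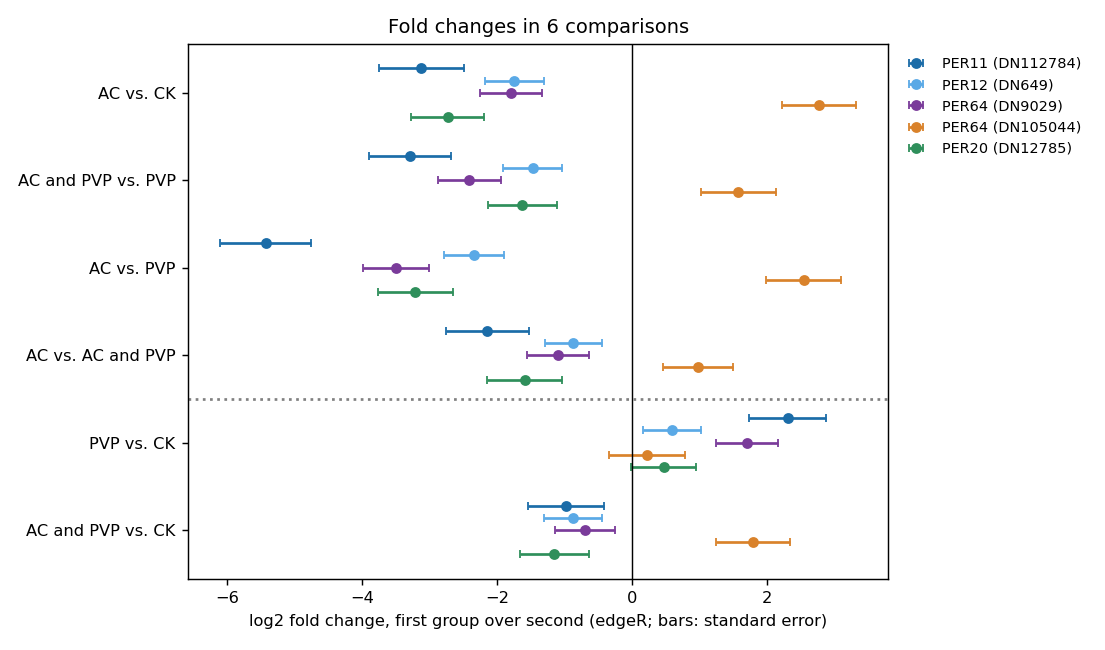
Log2 fold changes, first group over second, of the 5 unigenes in 6 comparisons; points are edgeR estimates and bars their SE. Comparisons above the dotted line chose the unigenes and are a description, those below it were tested; TRINITY_DN105044_c0_g1 is on the right of 0 in all 6, and PVP vs. CK is the only comparison with the other 4 also on the right.

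PVP vs. CK and AC and PVP vs. CK did not choose the 5 unigenes, but they share their libraries with the comparisons that did. A call needed an adjusted p below 0.05 together with a log2 fold change beyond 1 in either direction, by edgeR's quasi-likelihood test with Benjamini-Hochberg adjustment over 58247 unigenes. In PVP vs. CK, none of the 5 was called, against 0.699% of all unigenes (0.527% higher and 0.172% lower), and 2 of 5 had an unadjusted p under 0.05, against 11.2% of all unigenes. DESeq2, on all libraries as on the 2 groups alone, called 2 of 5 higher in PVP, PER11 and TRINITY_DN9029_c0_g1. Of all unigenes it called 2.90% and 2.80%, in either direction. By edgeR, the log2 fold change of PER11 was 2.31 ± 0.57 with an adjusted p of 0.077, and all PVP libraries were above all CK libraries. That of TRINITY_DN9029_c0_g1 was 1.71 ± 0.46 with an edgeR adjusted p of 0.10, again without overlap. These 2 of 5 unigenes stood against 5.99% of all unigenes with all PVP libraries higher, and in CPM of the library total both overlapped, so that the count was 0. The share of all unigenes in CPM of the library total is not given here. PER12 had 0.59 ± 0.43, PER20 0.48 ± 0.48 and TRINITY_DN105044_c0_g1 0.22 ± 0.57, with edgeR adjusted p of 0.64, 0.73 and 0.92.

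With library totals as the only scaling, the median of all unigenes in PVP vs. CK moved to -0.76 from the -0.16 under TMM, and the values of PER12, PER20 and TRINITY_DN105044_c0_g1 turned to -0.10, -0.22 and -0.32. Without PVP replicate 3, the library with the highest level of 4 of the 5, PER11 had 1.39, TRINITY_DN9029_c0_g1 1.2 and PER20 -0.20, and without CK replicate 2, the lowest CK library, they had 1.91, 1.41 and 0.14. Without CK replicate 3 PER11 had 3.17 and PER20 1.10, and without PVP replicate 1 TRINITY_DN105044_c0_g1 had -0.53. In every one of these fits the edgeR adjusted p of the 5 unigenes stayed over 0.05.

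In AC and PVP vs. CK, edgeR called none of the 5, against 0.786% of all unigenes (0.441% higher and 0.345% lower), and 2 of 5 had an unadjusted p under 0.05, against 12.8% of all unigenes. TRINITY_DN105044_c0_g1 had 1.80 ± 0.55 with an edgeR adjusted p of 0.16, and its AC and PVP libraries were all above its CK libraries, as for 5.84% of all unigenes. In CPM of the library total they overlapped. DESeq2, on all libraries as on the 2 groups alone, called this unigene higher with an adjusted p of 0.041, and no other of the 5. Of all unigenes it called 2.71% and 2.48%, in either direction. The other 4 had negative values, -0.97 ± 0.56 for PER11, -0.88 ± 0.43 for PER12, -1.15 ± 0.51 for PER20 and -0.70 ± 0.45 for TRINITY_DN9029_c0_g1, with edgeR adjusted p between 0.36 and 0.53, and their libraries overlapped. Without CK replicate 2 their values were -1.38 for PER11, -1.21 for PER12, -1.49 for PER20 and -1.0 for TRINITY_DN9029_c0_g1, and without CK replicate 3, the highest CK library, they were -0.05, -0.41, -0.46 and -0.30. Without AC and PVP replicate 2, TRINITY_DN9029_c0_g1 had -1.30. With library totals as the only scaling, the median of all unigenes was -0.49, against -0.12 under TMM, and edgeR called none of the 5. Whether the effect of PVP depends on activated carbon was not tested.

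The PER64 unigenes went opposite ways between AC and the groups without activated carbon, which can be followed within each library and without scaling as the share of TRINITY_DN105044_c0_g1 in the counts of both. This share was 49.3%, 24.5% and 30.1% in AC, 21.2%, 2.90% and 20.2% in AC and PVP, 1.81%, 0.452% and 0.446% in PVP, and 2.19%, 4.0% and 1.68% in CK. It was highest in AC, AC and PVP replicate 2 stood apart from its group and lay within the range of CK, and PVP overlapped with CK through replicate 1. Exact 95% binomial (Clopper-Pearson) intervals, which cover counting error only, were 44.6% to 54.1% for AC replicate 1, 1.67% to 4.66% for AC and PVP replicate 2, 1.29% to 2.46% for PVP replicate 1 and 2.35% to 6.33% for CK replicate 2. The share depends on the lengths of both unigenes, so only its differences between libraries are read.

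**Figure D3:**
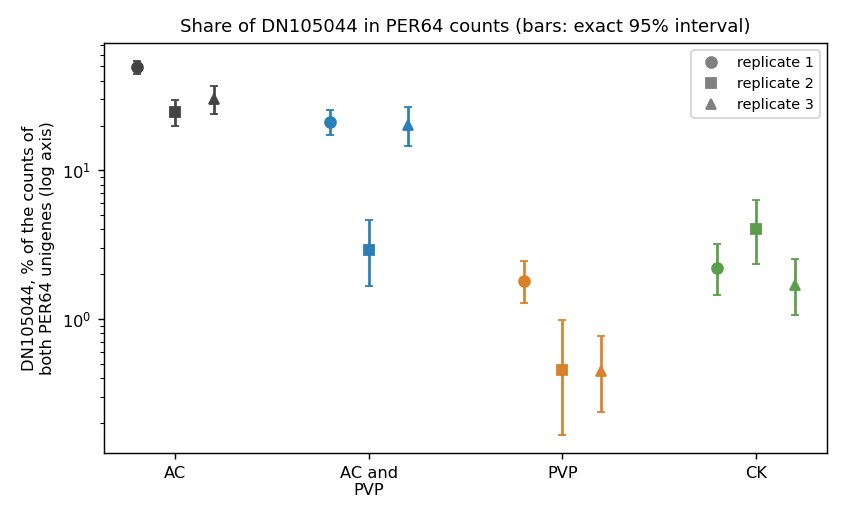
Share of TRINITY_DN105044_c0_g1 in the counts of both PER64 unigenes (%, log axis) in each library of AC, AC and PVP, PVP and CK; bars are exact 95% intervals for counting error. AC libraries lie between 24.5% and 49.3%, CK libraries between 1.68% and 4.0%, and AC and PVP replicate 2 lies at 2.90%.

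On the log2 scale, with 0.5 counts added to each, the ratio of TRINITY_DN105044_c0_g1 to TRINITY_DN9029_c0_g1 was -0.95 ± 0.82 in AC, -2.96 ± 1.79 in AC and PVP, -7.05 ± 1.13 in PVP and -5.28 ± 0.66 in CK (SD, n = 3 each). PVP minus CK was -1.77, and AC and PVP minus CK was 2.32, each with p = 0.2 in a two-sided exact permutation test and 0.2 after Benjamini-Hochberg adjustment over the 2 tests, where 3 against 3 libraries cannot go below 0.1. As a description, AC minus CK was 4.32, AC minus PVP 6.10, AC minus AC and PVP 2.01 and AC and PVP minus PVP 4.09. Without AC and PVP replicate 2, the difference of AC and PVP to CK was 3.35.

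To place the 5 unigenes among others, each was compared with 758 named unigenes that are not class III peroxidases, by the root mean square difference over the 12 libraries of log2(TMM-scaled CPM + 0.1) centred on the unigene. Since those names come from the study's lists, the most alike unigenes also changed between groups by choice. The likeness is a description, since the depth and scaling of a library are common to all its unigenes, and the median difference to all 758 was 1.52 to 2.23 for the 5.

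For PER11 the 3 most alike were the lipid transfer proteins LTG15 at 0.32 and LTPG5 at 0.40, both of the kind anchored to the membrane by a lipid, and the GDSL esterase/lipase GDL38 at 0.33. LTG15 averaged 5.75 CPM in AC, 24.3 CPM in AC and PVP, 213 CPM in PVP and 28.7 CPM in CK, the same order as PER11. For PER12 they were E70E2, an exocyst subunit, at 0.22, GPAT5 at 0.33, which in Arabidopsis makes suberin precursors as a glycerol-phosphate acyltransferase, and the cytochrome b561 unigene B561P at 0.40. For PER20 they were GPAT5 at 0.37, the cytochrome P450 unigene C7A15 at 0.42 and the acyltransferase GPAT1 at 0.43. In AC, C7A15 averaged 0.364 CPM, GPAT1 0.352 CPM and PER20 0.638 CPM, near the 0.1 CPM added. GPAT5 averaged 0.844 CPM in AC, 1.58 CPM in AC and PVP, 5.24 CPM in PVP and 3.67 CPM in CK.

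TRINITY_DN9029_c0_g1 was most like ERDL6 at 0.30, a sugar transporter, LAC5 at 0.41, a laccase, and E70E2 at 0.43. ERDL6 averaged 12.8 CPM in AC, 20.7 CPM in AC and PVP, 133.8 CPM in PVP and 41.7 CPM in CK. E70E2 averaged at most 0.658 CPM in any group, near the 0.1 CPM added, and with 1 CPM added only 1 of the 3 most alike unigenes remained for PER12 and for TRINITY_DN9029_c0_g1. TRINITY_DN105044_c0_g1 was most like PPCE at 0.47, a prolyl endopeptidase, FLA12 at 0.52, a fasciclin-like arabinogalactan protein, and BH068 at 0.57, a bHLH transcription factor. PPCE averaged 0.243 CPM in PVP and 0.178 CPM in CK, also near the 0.1 CPM added. FLA12 averaged 11.6 CPM in AC, 8.11 CPM in AC and PVP, 3.71 CPM in PVP and 1.91 CPM in CK.

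Among the 5, PER12 and PER20 were closest, at 0.42, and TRINITY_DN9029_c0_g1 was 0.58 to 0.69 from PER12, PER11 and PER20. TRINITY_DN105044_c0_g1 was 2.10 to 2.95 from the others and 2.44 from the other PER64 unigene.

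**Figure D4:**
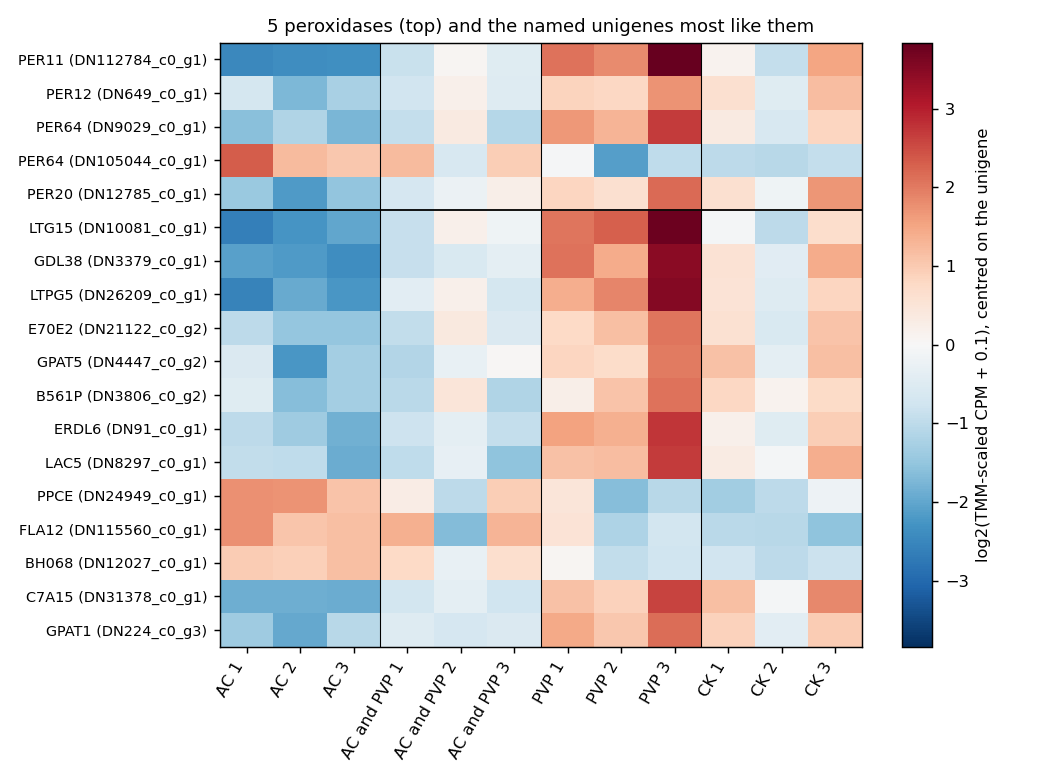
Centred log2(TMM-scaled CPM + 0.1) of the 5 peroxidases (above the line) and of the named unigenes most like them (below), in the libraries of AC, AC and PVP, PVP and CK; red is above and blue below the unigene's own mean. TRINITY_DN105044_c0_g1, PPCE, FLA12 and BH068 are red in AC, and the others are blue there and deepest red in PVP replicate 3.

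The other 6 class III peroxidases with a name in the study's lists were PER4, PER9, PER49, PER52, PER55 and PER72. In Arabidopsis, the enzymes named PER4, PER52 and PER72 act in lignin formation. In all 6 the AC libraries lay below the PVP libraries without overlap, against 6.38% of all unigenes, and in 3 of 6 below the CK libraries, against 7.25%. All 6 had a lower mean in AC than in CK. This is a description, since they too come from these lists. PER49 had 1 count over all AC libraries, which allows no fold change, and it carries the same Trinity cluster number as PER9, so that their reads could have been split between them.

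PER72 (TRINITY_DN225_c0_g1) had 49.3, 39.2 and 72.3 CPM in PVP, against 22.1, 5.70 and 14.2 CPM in CK, without overlap. It was the 1 of 6 called by edgeR in PVP vs. CK, against 0.527% of all unigenes called higher, with a log2 fold change of 1.93 ± 0.42 and an edgeR adjusted p of 0.047. The call was lost with library totals as the only scaling (log2 fold change 1.22, adjusted p 0.21), with edgeR on the 2 groups (adjusted p 0.091), and without PVP replicate 1 (0.11), 2 (0.069) or 3 (0.16) or CK replicate 2 (0.083) or 3 (0.14). PER52 had 430, 1246 and 396 CPM in PVP, against 197, 190 and 297 CPM in CK, and PER4 had 8.60, 17 and 183 CPM in PVP, against 4.93, 20.4 and 24.6 CPM in CK. PER52 was higher in all PVP libraries, whereas 1 library, PVP replicate 3, set the mean of PER4. With PER72, PER52 and PER9, 3 of the 6 had all PVP libraries above all CK libraries, against 5.99% of all unigenes. In CPM of the library total PER52 overlapped, with 304 in PVP replicate 3 against 393 in CK replicate 3. PER72 overlapped as well, with 29.5 in PVP replicate 2 against 32.4 in CK replicate 1. The edgeR adjusted p were 0.15 for PER52 and 0.35 for PER4. DESeq2, on all libraries as on the 2 groups, called 2 of the 6 higher, PER72 and PER52. Of all unigenes it called 2.90% and 2.80%, in either direction. In AC and PVP vs. CK none of the 6 was called by edgeR, and 1 had an unadjusted p under 0.05, against 12.8% of all unigenes. On the 2 groups DESeq2 called none. On all libraries it called 1, lower, against 2.71% of all unigenes in either direction. This was PER55, named after its values were seen, with 5.46, 3.63 and 2.43 CPM in AC and PVP, against 9.51, 6.60 and 15.9 CPM in CK, and an edgeR adjusted p of 0.092.

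**Figure D5:**
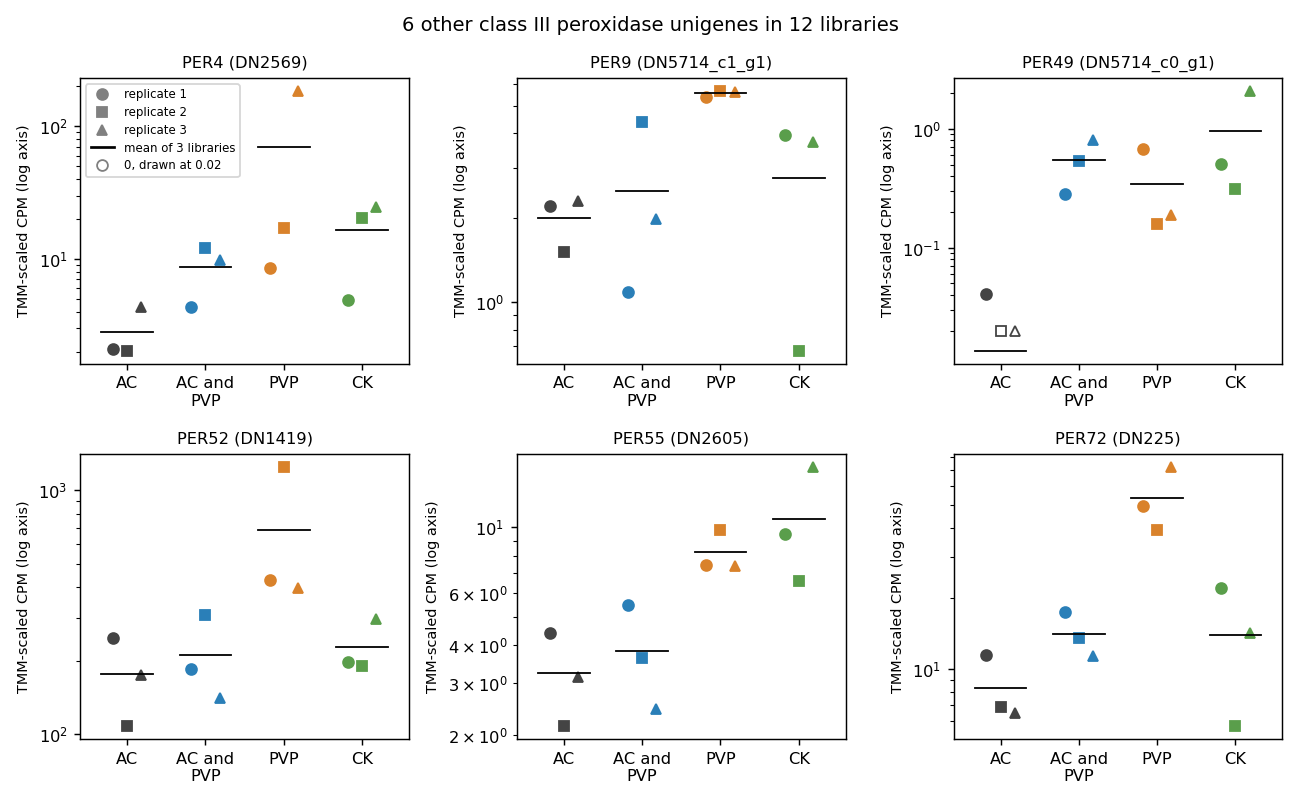
TMM-scaled CPM (log axis) of the 6 other named class III peroxidases in each library of AC, AC and PVP, PVP and CK; symbols mark replicates, open symbols libraries at 0 and lines the mean of 3 libraries. The PVP libraries of PER72 lie between 39.2 and 72.3 CPM and above its CK libraries, and PER4 has 183 CPM in PVP replicate 3.

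The substrates of peroxidases in lignin come from monolignol synthesis, laccases oxidise the same substrates with oxygen, and the Casparian strip needs scaffold proteins of the CASP family and the transcription factor MYB36. The named unigenes of these groups, all from the study's lists, are given as counts in both tested comparisons. The 4 called Casparian strip unigenes are MYB36 and CSPL5, CSPLA and CSPLB, whose names are CASP-like. Their place in the strip was not tested. The study's lists used the same libraries, so their members can differ in the tested comparisons through that choice alone. The counts and medians are therefore a description, and nothing is read from their distance to all unigenes. In PVP vs. CK, 1 of 13 monolignol unigenes was called higher by edgeR, against 0.527% of all unigenes, and 11 had an unadjusted p under 0.05, against 11.2%. Their median log2 fold change was 1.02, against -0.16 for all unigenes, 0.59 for the 5 peroxidases and 1.29 for the other 6. With library totals as the only scaling these medians were 0.36, against -0.76, -0.10 and 0.60. DESeq2 called 7 of the 13 higher on all libraries, against 2.90% of all unigenes in either direction, and 6 on the 2 groups, against 2.80%. The one called by edgeR was a caffeoyl shikimate esterase, CSE TRINITY_DN9013_c0_g1, which averaged 25.6 CPM in PVP and 7.10 CPM in CK (log2 fold change 1.85 ± 0.35, adjusted p 0.032). That call was lost with library totals as the only scaling (adjusted p 0.062) and without PVP replicate 1 (0.063), 2 (0.091) or 3 (0.072) or CK replicate 1 (0.073) or 3 (0.088). None of 5 laccases (1 with an unadjusted p under 0.05, median 0.94) was called by edgeR. Nor was any of the 4 Casparian strip unigenes (2 with an unadjusted p under 0.05, median -0.68, from -1.17 to 1.91). DESeq2, on all libraries as on the 2 groups, called none of the laccases and 1 of the 4, higher.

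In AC and PVP vs. CK, the medians were -0.18 for the 13 monolignol unigenes, -1.59 for the 5 laccases and -0.30 for the 4 Casparian strip unigenes, against -0.12 for all unigenes, -0.88 for the 5 peroxidases and -0.53 for the other 6. Of the monolignol unigenes 1 was called higher and 1 lower, of the laccases 1 lower and of the Casparian strip unigenes 1 lower, where edgeR called 0.441% of all unigenes higher and 0.345% lower. DESeq2, on all libraries as on the 2 groups, gave the same counts and also called 1 Casparian strip unigene higher. Of all unigenes it called 2.71% and 2.48%, in either direction. The ligase-like 4CLL7 averaged 21.7 CPM in AC and PVP and 5.09 CPM in CK (2.08 ± 0.46, adjusted p 0.049; 1.37 without AC and PVP replicate 3), a call lost with library totals as the only scaling (0.079), with edgeR on the 2 groups (0.12) and without any CK library or AC and PVP replicate 1 or 3 (0.066 to 0.20). The second CSE unigene, TRINITY_DN17083_c0_g1, averaged 2.58 CPM in AC and PVP and 12.8 CPM in CK (-2.30 ± 0.41, adjusted p 0.020; -1.67 without CK replicate 2), lost with edgeR on the 2 groups (0.063) and without CK replicate 3 or any AC and PVP library (0.052 to 0.092). MYB36, which in Arabidopsis switches on Casparian strip genes including that of PER64, averaged 2.31 CPM in AC and PVP and 9.02 CPM in CK (-1.96 ± 0.36, adjusted p 0.024), lost with edgeR on the 2 groups (0.052) and without CK replicate 3 or AC and PVP replicate 1 or 3 (0.068 to 0.12). The CASP-like unigene CSPLA, named after its values were seen, had 9.92, 1.95 and 11.9 CPM in AC and PVP, against 0.0892, 1.75 and 0.117 CPM in CK, where 2 libraries held 3 counts each. Its log2 fold change was 3.66 ± 0.82 with an edgeR adjusted p of 0.052, and 6.2 with an adjusted p of 0.0024 without CK replicate 2. The edgeR adjusted p was also under 0.05 without AC and PVP replicate 2 (0.040) and with other settings such as library totals only (0.034). It rose to 0.12 without CK replicate 1 and to 0.16 without CK replicate 3. Without AC and PVP replicate 1 or 3 it was 0.14 and 0.16, and with edgeR on the 2 groups 0.16. The laccase LAC1 averaged 0.267 CPM in AC and PVP and 2.83 CPM in CK (-3.34 ± 0.72, adjusted p 0.042), lost without CK replicate 1 or 3 or any AC and PVP library (0.096 to 0.20). Without CK replicate 2, the library with the highest seed reserve sum, edgeR called 1.37% of all unigenes. Of the lists it then called 1 of the 6 other peroxidases lower, 0 of the 13 monolignol unigenes higher and 1 lower, 2 of the 5 laccases lower, and of the 4 Casparian strip unigenes 2 higher and 1 lower.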

How the data were processed

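RNA was measured in 12 libraries, grouped by the sample labels. The authors trimmed reads with TrimGalore 0.6.4, assembled them with Trinity 2.4.0, aligned them with Bowtie 1.2.3 and deposited estimated counts per unigene from RSEM 1.3.3, of which 2.39% to 3.97% per library were not whole. The estimated counts were rounded. The filter kept unigenes detected (count over 0) in 3 or more libraries and left out 72709. The test was edgeR's quasi-likelihood test (edgeR 4.0.16, limma 3.58.1, R 4.3.3) after TMM scaling, in one fit over all libraries, checked on simulated data, with Benjamini-Hochberg adjustment. DESeq2 1.42.0, the tool of the study's methods, was an alternative. The SE was taken from the log2 fold change and its F statistic, and p-values measure the spread between pooled samples.

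The deposited counts hold no gene names. Swiss-Prot names come from the study's supplementary lists of differentially expressed unigenes, and members and lists were chosen with earlier results of these data known. Named are the 5 peroxidases, the 6 others, called members of the pathway lists (at most 4 a list and comparison) and the 3 most alike unigenes of each of the 5. Alternatives were other scaling (RLE, library totals), filters (filterByExpr, none), the legacy fit, 2-group fits, a replicate block, other pseudocounts and each library left out.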

Additional observations from a re-analysis of the deposited data

How the results depend on the processing

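In PVP vs. CK, the 5 peroxidases gave 2 calls without a filter, with DESeq2 on all libraries and on 2 groups, and 1, PER11, with the legacy fit, and 0 whichever library was left out. In AC and PVP vs. CK they gave 1 call, TRINITY_DN105044_c0_g1, without a filter and with DESeq2 on all libraries and on 2 groups, and again 0 whichever library was left out. Over all unigenes, the 407 calls of PVP vs. CK became 1147 with library totals only, 837 with filterByExpr, 2444 without a filter, 1689 with DESeq2 on all libraries, 1607 with DESeq2 on 2 groups and 5 to 267 with a library left out (5 without CK replicate 3). The 458 of AC and PVP vs. CK became 763, 821, 2804, 1580 and 1424 under these settings, 284 with edgeR on 2 groups and 50 to 738 with a library left out.

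The study's methods describe the biological replicates as paired. Of 18 same-numbered pairs, 6 had deviations correlated over 0.1 (r between -0.15 and 0.15), and 5 of 12 libraries correlated best with their own number. These values showed no clear pairing by number, but with so few libraries a group they cannot exclude it. With the number as a replicate block, edgeR called 1298 and 1433 unigenes, and of the 5 peroxidases 2 in PVP vs. CK (PER11 and TRINITY_DN9029_c0_g1) and 1 in AC and PVP vs. CK (TRINITY_DN105044_c0_g1).

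In PVP vs. CK the log2 fold changes of PER12, PER20 and TRINITY_DN105044_c0_g1 changed sign with library totals only, to -0.10, -0.22 and -0.32, and with a library left out PER20 ranged from -0.20 to 1.10 and TRINITY_DN105044_c0_g1 from -0.53 to 0.62. The PER64 log2 ratio ranged from -2.43 to -1.41 in PVP vs. CK and from 1.78 to 3.35 in AC and PVP vs. CK with a library left out. In the comparisons that chose the 5 unigenes, 286 of 300 values under the alternatives stayed within 1 SE, and 0 changed sign. All 14 others came from leaving out 1 library, and those moved by over 1.5 times stand beside the values in the report. The cause of these differences was not tested. Counts of 6 to 39 a library limit TRINITY_DN105044_c0_g1 in PVP and CK, and 8 to 19 limit PER20 in AC.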
